A study of Mus musculus with 46 samples.

Results

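Nrf2, encoded by Nfe2l2, is the transcription factor that turns on the antioxidant genes of a cell. Under resting conditions Keap1 holds it and hands it to a Cul3 ubiquitin ligase for destruction. Oxidants and electrophiles modify Keap1, after which Nrf2 accumulates, pairs with a small Maf protein and binds antioxidant response elements in its targets. In the liver these targets make and recycle glutathione and thioredoxin, remove quinones and break down haem. Bach1, a repressor that binds the same elements, and the stress factor ATF4 act on several of the same genes.

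The genes described here are 10 textbook Nrf2 targets chosen by name: Srxn1, Txnrd1, Gclc, Gclm, Slc7a11, Hmox1, Sqstm1, Nqo1, Osgin1 and Prdx1. Each was read from the probe set that names only that gene and has the highest mean over all arrays. Of the 10 genes, 9 had such a probe set, among 18193 genes on the array, and 18 probe sets in all name only 1 of the 9. Prdx1, a peroxiredoxin that breaks down peroxides, has 5 probe sets that also name Gm21399, so it has no value of its own here. All 9 measured genes passed the filter on low values, which asked for 5 or more arrays above 5.55823, the overall median. Slc7a11 passed only through 3 arrays at 8 h and 3 at 1 d, so it had to differ there, and counts are also given without it. Nqo1 was above that median on 29 of 46 arrays and the other 7 genes on all 46.

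RNA of whole livers was measured on Affymetrix arrays after carbon tetrachloride (CCl4), a solvent that hepatocytes convert to a toxic radical. All mice were C57BL/6N males aged 8 to 10 weeks from Janvier Labs, without a genetic change named in the labels. The 5 control arrays came from untreated mice, and the treated mice had 1 intraperitoneal injection of 1.6 g/kg CCl4 in olive oil and were sampled after 2 h and 8 h and after 1, 2, 4, 6 and 8 d, with 5 arrays per time, or after 16 d, with 6 arrays. No group received oil alone, so effects of the injection and the oil are included in the differences from control, and the labels do not give the hour of the day at which livers were taken. The treatment field of the labels reads CCL4 for the controls as well, whereas their titles call them controls. Nothing in the labels ties each array to a separate animal. The p-values therefore reflect the spread between arrays alone, and that spread may be technical.

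Values are log2 expression values, so a difference of 1 is a 2-fold difference. A gene was called higher or lower where limma's adjusted p (Benjamini-Hochberg over the 13239 genes tested) was under 0.05, and ± after a difference is its standard error in that fit. The tissue check held on all arrays: Alb, Apoa1 and Ttr, which hepatocytes make for the plasma, lay between 13.9 and 14.9 on the log2 scale throughout. The summed linear level of 9 hepatocyte markers was 112000 to 117000 in controls, 114000 to 123000 at 2 h, 96100 to 104000 at 8 h and 76900 to 93600 at 1 d. Of these 9 markers, 0 were called higher and 3 lower at 8 h, beside 17.7% and 24.2% of all genes. At 1 d 0 were higher and 7 lower, beside 25% and 25.1% of all genes, with a median difference of -0.824. In whole-liver RNA, fewer cells of a type and less RNA per cell cannot be told apart. The 3′ minus 5′ difference of the Gapdh control probe sets, a sign of RNA integrity, was 0.347 ± 0.0646 in controls and 0.136 ± 0.134, 0.167 ± 0.0809, 0.169 ± 0.0925 and 0.198 ± 0.0346 at 2 h, 8 h, 1 d and 2 d (SD, n = 5). With this difference as a covariate, every call of the genes below at 2 h and 8 h against control was kept, and those of Nqo1 at 1 d and 2 d and of Hmox1 at 2 d were lost (adjusted p = 0.06871, 0.07828 and 0.1781).

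At 2 h Srxn1, Hmox1 and Sqstm1 were called higher and Gclm lower. At 8 h Srxn1, Txnrd1, Gclc, Slc7a11, Hmox1 and Sqstm1 were called higher and none lower, and at 1 d the same list without Hmox1 but with Nqo1 was higher and Gclm lower. From 4 d to 16 d none of the 9 was called against control, where over all genes 4.74% were higher and 2.21% lower at 4 d and 0.0227%, 0.144% and 1.51% were called either way at 6 d, 8 d and 16 d. The counts of the 9 called higher were thus 3 at 2 h, against 6.41% of all genes tested, 6 at 8 h (17.7%), 6 at 1 d (25%) and 5 at 2 d (21.1%). Without Slc7a11 they were 3, 5, 5 and 5 of 8. Called lower were 1 of 9 at 2 h (19.9% of all genes), 0 at 8 h (24.2%), 1 at 1 d (25.1%) and 0 at 2 d (18.9%). All arrays lay above all control arrays in 3 of the 9 genes at 2 h, 6 at 8 h, 4 at 1 d, 3 at 2 d and 1 at 4 d, beside 4.34%, 13.9%, 16.7%, 15.7% and 6.44% of all genes. Without Slc7a11 the count at 8 h was 5 of 8. From 2 h to 2 d the median difference of the 9 genes was in turn 0.149, 1.74, 1.11 and 0.686, beside -0.032, -0.0442, -0.0377 and -0.0284 over all genes. The 8 h median is the value of Slc7a11 itself, and without that gene the medians were 0.129, 1.70, 0.977 and 0.72. The background at 2 h moved with the scaling of the arrays: the deposited values gave 848 higher and 2638 lower, but 1153 and 1900 after quantile normalization and 1238 and 1364 after cyclic loess. The overall F-test across the course called all 9 genes, as it did 83.4% of all genes.

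**Figure D1:**
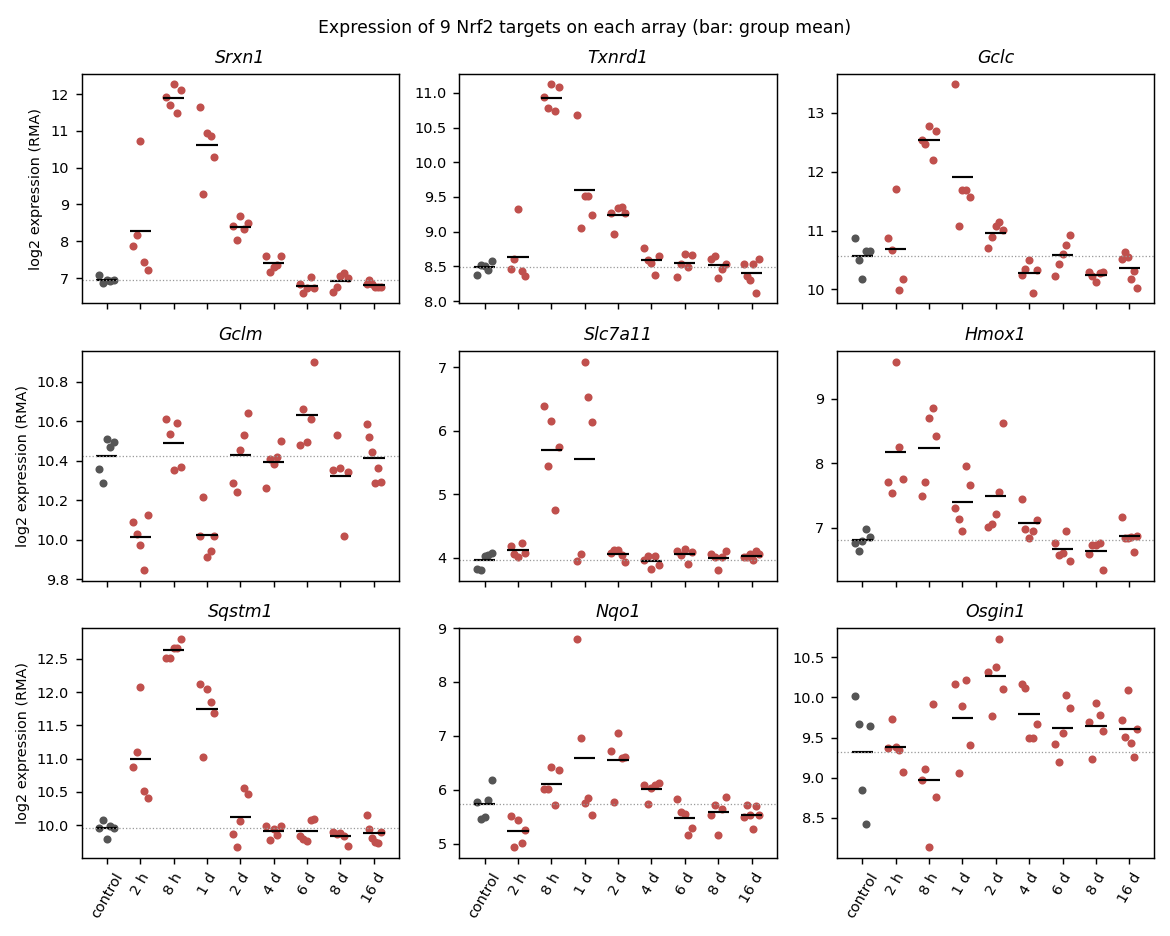
Log2 expression of the 9 measured genes on each of the 46 arrays, by group in time order, with a bar at each group mean. Srxn1 rose from a mean of 6.95 in controls to 11.89 at 8 h, and from 4 d on the 9 genes differed from control by -0.33 to 0.47.

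The promoters differ in the motifs they hold, and the following stretches of measured genes are shown because they carry the motifs found before an annotated start. Promoters of 8 of the 10 genes were in the RefSeq table (build GRCm38.p6, 250 bases before to 50 after each start), with 3 starts for Txnrd1. Gclc and Hmox1 were not matched. Motifs were searched on both strands: the core of the antioxidant response element (TGACNNNGC), the AP-1 site (TGANTCA), which can overlap that core, the composite site of CCAAT enhancer proteins and ATF4 (TGATGNAA), the E-box (CACGTG) and the heat shock element. Capitals mark the motif, all sequences read 5′ to 3′ on the gene's strand, and positions count from the start. Stretches at a start inside the annotated gene are kept short.

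Srxn1, AP-1 sites at -102 and -45, chr2:152105402-152105505, plus strand:
Srxn1: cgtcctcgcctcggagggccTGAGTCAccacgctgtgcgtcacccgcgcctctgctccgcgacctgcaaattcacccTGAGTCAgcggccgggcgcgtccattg

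Gclm, element core at -134 on the opposite strand, chr3:122245403-122245451, plus strand:
Gclm: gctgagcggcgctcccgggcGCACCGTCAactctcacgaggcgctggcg

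Txnrd1, element core at -92 on the opposite strand, chr10:82859104-82859132, plus strand, a start inside the gene:
Txnrd1: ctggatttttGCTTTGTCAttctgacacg

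Osgin1, AP-1 site at -97, chr8:119437039-119437067, plus strand, a start inside the gene:
Osgin1: ggggcccctgcTGACTCAcgcttatgaaa

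Slc7a11, composite sites at -66 and, on the opposite strand, -47, chr3:50443652-50443680, minus strand, a start inside the gene:
Slc7a11: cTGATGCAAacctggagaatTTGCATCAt

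The 8 genes have 10 promoters in the table. The element core was present in 4 of the 10 (3 before the start), beside 12.4% of all 32851 promoters. Srxn1 holds it only after its start, at +29. Prdx1, which has no expression value, holds it at -133 on the opposite strand, and AP-1 sites at -237 and -131. It is included in these counts, but its stretch is not shown. The AP-1 site was present in 3 of 10, beside 7.81% of all promoters, and the composite site in 1 of 10, that of Slc7a11, beside 3.97%. The E-box and the heat shock element were in 0 of 10, beside 7.15% and 0.603%. A match is a description of the letters, and Gclm and Txnrd1, which share the core, differed in their course as given below.

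In the thioredoxin branch Srxn1 had the largest difference of the 9 genes at 8 h. It encodes sulfiredoxin, which repairs over-oxidised peroxiredoxins. The control arrays read 7.07, 6.88, 6.94, 6.92 and 6.95. At 2 h the arrays read 7.87, 8.18, 10.71, 7.43 and 7.22, at 8 h 11.91, 11.70, 12.26, 11.47 and 12.11, and at 1 d 11.66, 9.28, 10.94, 10.86 and 10.30. Every array at these 3 times lay above every control array, and at 2 h array 3 stood far above the other four. The difference from control was 1.33 ± 0.34 at 2 h (2.52-fold, adjusted p = 0.003437), 4.94 ± 0.34 at 8 h (30.7-fold, adjusted p = 6.673e-15) and 3.66 ± 0.34 at 1 d (12.6-fold, adjusted p = 1.004e-11). Without array 3 the 2 h difference was 0.72 (adjusted p = 0.02345), and with only the control and 2 h arrays in the fit the call at 2 h was lost (adjusted p = 0.0613). At 2 d the arrays read 8.43, 8.04, 8.70, 8.34 and 8.50, still 1.45 ± 0.34 above control (adjusted p = 0.0008493) with no overlap. That call rests on the brightest probe set: the other 3 gave 0.48, -0.02 and 0.67 at 2 d, none called (adjusted p = 0.1612, 0.882 and 0.08777). Srxn1 rose from 2 h to 8 h by 3.61 ± 0.34 (adjusted p = 5.063e-11) and then fell by 1.28 to 1 d (adjusted p = 0.003307), by 2.21 to 2 d (adjusted p = 2.08e-06) and by 1.00 to 4 d (adjusted p = 0.02352). At 4 d its 5 arrays, 7.16 to 7.59, were still above all controls although the difference of 0.45 was not called (adjusted p = 0.5243). With only the control and 4 d arrays in the fit it was called (adjusted p = 0.003847). The other 3 probe sets gave 0.13, 0.01 and 0.30 at 4 d in the common fit, none called.

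Txnrd1 encodes cytosolic thioredoxin reductase, the selenoenzyme that keeps thioredoxin reduced. Controls read 8.38, 8.51, 8.51, 8.45 and 8.58, and the 2 h arrays 8.46, 8.61, 9.32, 8.43 and 8.36. The 2 h arrays overlapped the controls except array 2, slightly above, array 5, slightly below, and array 3, far above. At 8 h the arrays read 10.93, 10.78, 11.12, 10.74 and 11.08, and at 1 d 10.69, 9.05, 9.51, 9.51 and 9.24. All arrays at 8 h and 1 d were above all controls, and array 1 at 1 d stood apart from the others. The difference from control was 0.15 ± 0.17 at 2 h (adjusted p = 0.56), 2.45 ± 0.17 at 8 h (5.45-fold, adjusted p = 6.673e-15), 1.11 ± 0.17 at 1 d (2.16-fold, adjusted p = 5.622e-07) and 0.75 ± 0.17 at 2 d (adjusted p = 0.0004576). The other Txnrd1 probe set above the filter gave 0.44 at 1 d, still called, and 0.17 at 2 d, not called (adjusted p = 0.2021). Txnrd1 rose by 2.30 ± 0.17 from 2 h to 8 h (adjusted p = 5.984e-14) and fell by 1.33 from 8 h to 1 d (adjusted p = 4.827e-08).

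Gclc and Gclm, the catalytic and modifier subunits of glutamate-cysteine ligase, took different courses. This enzyme makes the rate-limiting step of glutathione synthesis. Gclc read 10.88, 10.49, 10.18, 10.66 and 10.65 in controls and 10.88, 10.67, 11.70, 9.99 and 10.17 at 2 h. Those 2 groups overlapped, with array 3 at 2 h above all controls and arrays 4 and 5 below them. At 8 h Gclc read 12.54, 12.48, 12.78, 12.19 and 12.70, and at 1 d 13.48, 11.08, 11.69, 11.69 and 11.57. All of these were above all controls. Gclc differed from control by 0.11 ± 0.25 at 2 h (adjusted p = 0.79), 1.97 ± 0.25 at 8 h (3.91-fold, adjusted p = 2.031e-08) and 1.33 ± 0.25 at 1 d (2.52-fold, adjusted p = 2.587e-05). At 2 d the difference of 0.39 was not called (adjusted p = 0.21).

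Gclm read 10.36, 10.29, 10.51, 10.47 and 10.50 in controls. At 2 h it read 10.09, 10.03, 9.97, 9.85 and 10.12, at 8 h 10.61, 10.53, 10.35, 10.59 and 10.37, and at 1 d 10.02, 10.22, 9.91, 9.94 and 10.02. The arrays at 2 h and 1 d lay below all controls, and those at 8 h overlapped them. Gclm fell by 0.41 at 2 h (adjusted p = 0.0004119) and by 0.40 at 1 d (adjusted p = 0.0001456), each with a standard error of 0.09, and differed by 0.07 ± 0.09 at 8 h (adjusted p = 0.59). The call at 2 h was lost after cyclic loess, where the difference was -0.22 (adjusted p = 0.06887). The other Gclm probe set gave -0.37, -0.30 and -0.92 at 2 h, 8 h and 1 d, so it was lower at 8 h too.

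The unequal change of the subunits was tested on the same arrays. The Gclc minus Gclm difference was 0.148 ± 0.306 in controls, 0.67 ± 0.671 at 2 h, 2.05 ± 0.335 at 8 h, 1.88 ± 0.96 at 1 d and 0.537 ± 0.133 at 2 d (SD, n = 5). Levels of different probe sets are not comparable, so the change of this difference was tested. By two-sided exact permutation tests of 5 arrays against 5 it was 0.522 at 2 h (p = 0.159, adjusted 0.176), 1.90 at 8 h and 1.74 at 1 d (each p = 0.00794, adjusted 0.0159), 0.389 at 2 d (p = 0.0238, adjusted 0.034) and 1.38 from 2 h to 8 h (p = 0.0159, adjusted 0.0265). There were 10 such tests, over which the adjusted values were taken, and 0.00794 is the smallest p the design allows. At 8 h and 1 d no array overlapped the controls.

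**Figure D2:**
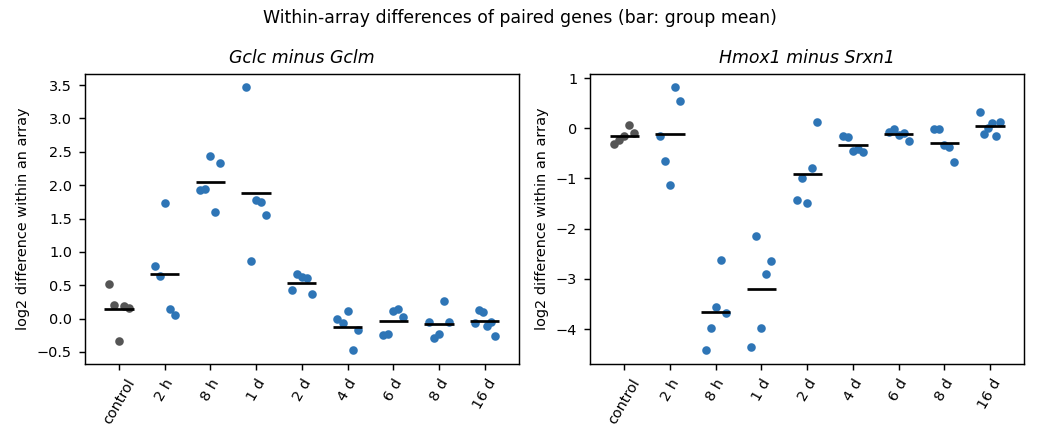
Within-array log2 differences of Gclc minus Gclm and Hmox1 minus Srxn1 by group, each point an array and each bar the group mean. Gclc minus Gclm rose from 0.148 in controls to 2.05 at 8 h, and Hmox1 minus Srxn1 went from -0.114 at 2 h to -3.65 at 8 h.

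Slc7a11 encodes the light chain of the cystine importer, which supplies cysteine for glutathione. Controls read 3.82, 3.81, 4.03, 4.05 and 4.08, all below the median of all values, and the 2 h mean was 4.12. At 8 h the arrays read 6.38, 5.45, 6.16, 4.76 and 5.75, all above all controls. At 1 d they read 3.95, 4.06, 7.09, 6.54 and 6.14: arrays 1 and 2 were at the control level and arrays 3, 4 and 5 far above it. The difference from control was 1.74 ± 0.32 at 8 h and 1.60 ± 0.32 at 1 d. These are given as a description, since the gene passed the filter only through those groups. Without arrays 1 and 2 at 1 d the difference was 2.63, and 1 d was then above 8 h by 0.89 instead of 0.14 below it. By 2 d the mean was back to 4.06.

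Hmox1 encodes haem oxygenase-1, which opens the haem ring and frees iron. Controls read 6.75, 6.64, 6.79, 6.98 and 6.86. At 2 h the arrays read 7.71, 7.54, 9.58, 8.25 and 7.76, at 8 h 7.48, 7.71, 8.71, 8.86 and 8.43, and at 1 d 7.30, 7.13, 6.95, 7.95 and 7.66. All arrays at 2 h and 8 h were above all controls, and at 1 d array 3 fell among them. Hmox1 differed from control by 1.36 ± 0.27 at 2 h (2.57-fold, adjusted p = 0.0001953), 1.43 ± 0.27 at 8 h (2.70-fold, adjusted p = 2.227e-05) and 0.59 ± 0.27 at 1 d (adjusted p = 0.061). From 2 h to 8 h the difference was 0.07 ± 0.27 (adjusted p = 0.8597). Without array 3 at 2 h that step was 0.42, also not called (adjusted p = 0.1588). From 8 h to 1 d Hmox1 fell by 0.84 (adjusted p = 0.01362). At 2 d its arrays read 7.01, 7.05, 7.22, 7.55 and 8.63 and the difference of 0.69 was called (adjusted p = 0.03788), but it was 0.40 (adjusted p = 0.2213) without array 5. Arrays 4 and 5 at 2 d also had summed macrophage marker levels of 6910 and 6280, beside 1540, 1880 and 1170 on the other arrays. Their Kupffer cell sums were 5480 and 6660, beside 3460, 3520 and 3090. Of 8 macrophage markers tested, 5 were called higher and 0 lower at 2 d. Of 8 Kupffer cell markers, 3 were higher and 1 lower, beside 21.1% and 18.9% of all genes. Lgals3, a bright gene among the summed macrophage markers, read 12.27 and 12.10 on arrays 4 and 5, beside 8.62 to 9.98 on the others. The part of these cells in the 2 d value was not tested.

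The early level of Hmox1 was set against that of Srxn1 on the same arrays. By the same two-sided exact permutation tests, the Hmox1 minus Srxn1 difference changed from control by 0.0333 at 2 h (p = 0.929, adjusted 0.929), by -3.50 at 8 h and -3.06 at 1 d (each p = 0.00794, adjusted 0.0159) and by -0.762 at 2 d (p = 0.0476, adjusted 0.0595). Between 2 h and 8 h it changed by -3.54 (exact permutation p = 0.00794, adjusted 0.0159). The spread of this difference was wide at 2 h (SD 0.809, beside 0.146 in controls, n = 5), with arrays on both sides of the control range. With the mean of all probe sets of each gene, the change from control by the same test was 0.537 at 2 h (adjusted p = 0.02976). At 2 d it was then 0.0424 (adjusted p = 0.9683).

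Sqstm1 encodes p62, an autophagy receptor that binds Keap1. Controls read 9.96, 10.07, 9.80, 9.98 and 9.96, the 2 h arrays 10.87, 11.09, 12.07, 10.52 and 10.41, the 8 h arrays 12.51, 12.52, 12.66, 12.66 and 12.80, and the 1 d arrays 12.12, 11.03, 12.04, 11.84 and 11.68. All were above all controls, with array 3 highest at 2 h and array 2 lowest at 1 d. The difference was 1.04 ± 0.18 at 2 h (2.05-fold, adjusted p = 5.195e-05), 2.67 ± 0.18 at 8 h (6.38-fold, adjusted p = 6.673e-15) and 1.79 ± 0.18 at 1 d (3.45-fold, adjusted p = 1.113e-10), and by 2 d it was 0.17 (adjusted p = 0.48). The other Sqstm1 probe set was already at 1.47 at 2 h, 1.25 at 8 h and 0.53 at 1 d. Its 8 h level was 0.21 below its 2 h level (adjusted p = 0.2357), so the further rise from 2 h to 8 h rests on the brighter probe set.

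Nqo1, a quinone reductase often used as the readout of Nrf2, was not called at 2 h or 8 h. Controls read 5.76, 5.45, 5.49, 5.81 and 6.18, the 2 h arrays 5.51, 4.93, 5.44, 5.01 and 5.25, and the 8 h arrays 6.01, 6.01, 6.43, 5.71 and 6.37. At 1 d they read 8.81, 6.95, 5.76, 5.86 and 5.54: arrays 1 and 2 were above all controls and arrays 3, 4 and 5 among them. The 1 d difference of 0.84 ± 0.31 (adjusted p = 0.02295) became 0.28 (adjusted p = 0.2723) without array 1, 0.75 (adjusted p = 0.05585) without array 2 and -0.02 (adjusted p = 0.927) without both. It was also lost without control array 2 or 3 (adjusted p = 0.05501 and 0.05186). At 2 d Nqo1 read 6.72, 5.78, 7.06, 6.59 and 6.60, a difference of 0.81 ± 0.31 (adjusted p = 0.03507) that was lost on leaving out any of 4 of the 2 d arrays (1, 3, 4 or 5) or any of control arrays 1 to 3. Nqo1 was higher at 8 h than at 2 h by 0.88 ± 0.31 (adjusted p = 0.02473), with no overlap. That call was lost in 6 of 24 alternative settings, among them leaving out array 2 or 4 at 2 h or array 3 or 5 at 8 h.

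Osgin1, an oxidative stress-induced growth inhibitor, varied widely among controls, which read 10.01, 9.67, 8.85, 8.42 and 9.64. At 8 h it read 8.97, 9.11, 8.13, 9.92 and 8.75 and the difference was -0.34 ± 0.26 (adjusted p = 0.30), and at 2 h and 1 d it was 0.06 and 0.43 (adjusted p = 0.89 and 0.16). At 2 d the arrays read 10.32, 9.77, 10.38, 10.74 and 10.11, which was 0.94 ± 0.26 above control (1.92-fold, adjusted p = 0.003227) with overlap. Osgin1 was thus the only gene of the 9 called higher at 2 d without a call at 2 h, 8 h or 1 d.

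**Figure D3:**
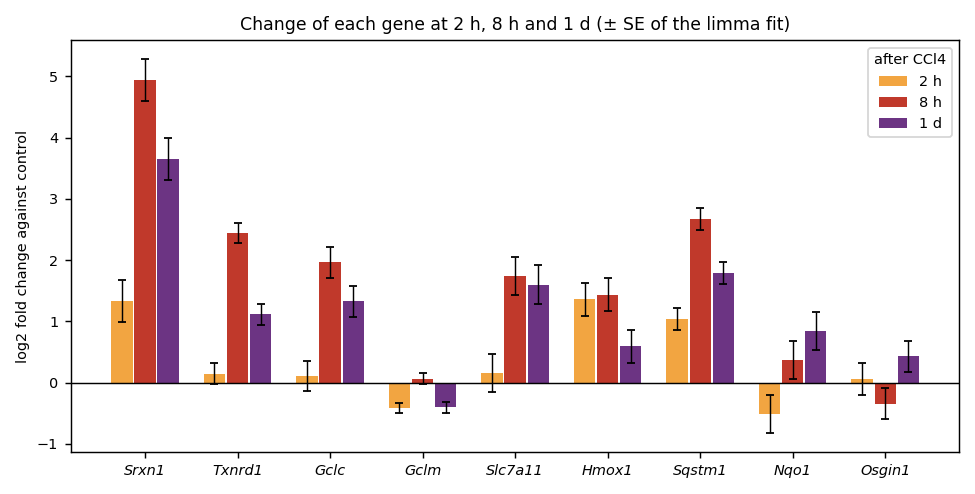
Log2 fold change against control of each gene at 2 h, 8 h and 1 d, with the standard error of the limma fit as error bars. Hmox1 stood at 1.36 and 1.43 at 2 h and 8 h, whereas Txnrd1 went from 0.15 to 2.45 and Gclc from 0.11 to 1.97.

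Early and later levels were compared directly. Between 2 h and 8 h 7 of 9 genes were called higher (20.4% of all genes): Srxn1, Txnrd1, Gclc, Slc7a11, Sqstm1, Nqo1 and Gclm, the last of these a return, on its brighter probe set alone, from its fall at 2 h (0.48 ± 0.09, adjusted p = 2.108e-05). None was called lower (15.4% of all genes), and without Slc7a11 the count was 6 of 8. On the other Gclm probe set this step was 0.06 and not called (adjusted p = 0.7229). The Nqo1 call was lost in 6 of 24 alternative settings. Hmox1 and Osgin1 were not called. Between 8 h and 1 d 6 of 9 were called lower (10.9% of all genes), namely Srxn1, Txnrd1, Gclc, Gclm, Hmox1 and Sqstm1, and Osgin1 was higher (20.8% of all genes). At 1 d 6 of 9 were above their 2 h level (31.9% of all genes), or 5 of 8 without Slc7a11, namely Srxn1, Txnrd1, Gclc, Slc7a11, Sqstm1 and Nqo1, and Hmox1 was below it (28.1%), by 0.77 (adjusted p = 0.01326), or by 0.42 (adjusted p = 0.1242) without array 3 at 2 h. From 1 d to 2 d Srxn1, Gclc, Slc7a11 and Sqstm1 fell, 4 of 9 (15% of all genes) or 3 of 8 without Slc7a11, and Gclm rose (17.4%). From 2 d to 4 d Srxn1, Txnrd1 and Gclc fell, 3 of 9 (17.9%), and 0 rose (13.4%). The Gclc step of -0.64 from 8 h to 1 d was at the threshold (adjusted p = 0.04967) and lost its call in 18 of 25 alternative settings. Its step from 2 d to 4 d lost the call in 8 of 24. By these calls, Hmox1 was higher at 2 h with no called step to 8 h, although that step was 0.42 without array 3 at 2 h. Srxn1 and, on its brighter probe set alone, Sqstm1 were higher at 2 h and higher again at 8 h. Txnrd1 and Gclc were first called at 8 h.

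The order of the levels along the course was as follows. Srxn1 was highest at 8 h, then 1 d, then 2 d and 2 h, which did not differ from each other (adjusted p = 0.7785), then 4 d and the rest. On its brighter probe set Sqstm1 ran 8 h, 1 d, 2 h and 2 d, each step called (adjusted p = 0.0002033, 0.0006803 and 0.000128), but on the other 8 h was 0.21 and 1 d 0.94 below 2 h, the latter called (adjusted p = 3.534e-07). Txnrd1 was highest at 8 h, followed by 1 d and 2 d, which were not called apart (adjusted p = 0.1026). Gclc ran 8 h, 1 d and 2 d, with 2 d and 2 h not apart (adjusted p = 0.3275). Its step from 8 h to 1 d was at the threshold (adjusted p = 0.04967) and lost in 18 of 25 alternative settings. On the other Gclc probe set that step was -0.46 and not called (adjusted p = 0.1413). Hmox1 was highest at 8 h and 2 h, then lower at 2 d (adjusted p = 0.02823). Slc7a11 had 8 h and 1 d at the top, both above 2 h. This order is a description, since the gene passed the filter only through those 2 groups. Arrays 1 and 2 at 1 d were at the control level. For Nqo1 and Osgin1 no neighbouring pair in the order was called apart. From 4 d to 16 d the differences of the 9 genes from control lay between -0.33 (Gclc at 8 d) and 0.47 (Osgin1 at 4 d), and 1 of the 36, Gclm at 6 d (0.20), had an unadjusted p under 0.05.

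Arrays of the same time did not move alike. At 2 h array 3 was the highest of the 5 in Srxn1, Txnrd1, Gclc, Hmox1 and Sqstm1, and also in Bach1 (11.06, beside 9.25 to 9.82) and Maff (10.27, beside 7.69 to 9.03). Without it Hmox1 at 2 h was 1.01 (adjusted p = 0.001941) and Sqstm1 0.77 (adjusted p = 0.0003636), so both calls held. At 1 d arrays 1 and 2 differed from arrays 3, 4 and 5 in opposite ways: they were at the control level in Slc7a11 and above all controls in Nqo1. They had summed monocyte-derived macrophage marker levels of 2900 and 1950, beside 7410, 6730 and 6510 on the other arrays and 564 to 662 in controls. Their neutrophil sums were 619 and 608, beside 1550, 1410 and 1780. Lgals3 was at 10.43 and 9.71 on arrays 1 and 2 and at 12.41 to 12.66 on the others. It is itself 1 of the summed macrophage markers and not a separate measure, and bright markers such as Lgals3 weigh most in a linear sum. The export pump gene Abcc4 was at 6.46 and 6.54 on arrays 1 and 2, beside 9.08 to 9.65. Of the 8 macrophage markers tested, 3 were called higher and 0 lower at 1 d, beside 25% and 25.1% of all genes. Of the 8 neutrophil markers tested, 2 were called higher and 3 lower, so the higher neutrophil sums do not hold for the list as a whole. The part of these cells in the values of the 9 genes was not tested. Without both arrays Srxn1 at 1 d was 3.75, Txnrd1 0.93, Gclc 1.08, Sqstm1 1.90 and Gclm -0.47, all still called.

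**Figure D4:**
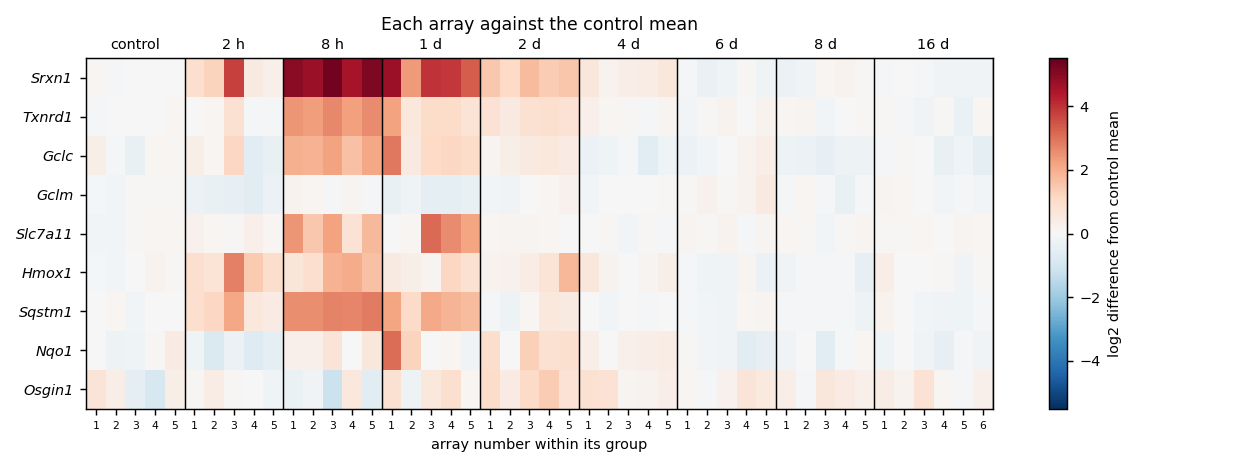
Log2 difference of each of the 46 arrays from the control mean, by gene (rows) and by array within its group (columns), red above and blue below. Array 3 at 2 h is redder than its group in Srxn1 and Sqstm1, and arrays 1 and 2 at 1 d lack the high Slc7a11 values of arrays 3, 4 and 5.

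After the group means were taken off, the residuals over the 46 arrays followed each other closely in some pairs. Pearson's r was 0.842 for Srxn1 and Sqstm1, 0.812 for Txnrd1 and Gclc, 0.75 for Srxn1 and Gclc, and 0.737 for Srxn1 and Txnrd1. For Gclc and Gclm it was 0.0519, and for Nqo1 and Slc7a11 it was -0.589. These values are descriptions, over arrays that share their scaling and include the arrays that stood apart.

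Other probe sets of the same genes were used as a check. The 4 probe sets of Srxn1 gave 0.14 to 1.33 at 2 h and 0.78 to 4.94 at 8 h, all called at 8 h. The 3 of Txnrd1 gave 0.61 to 2.45 at 8 h, the smallest from a probe set below the filter. Gclc gave 1.83 and Slc7a11 1.79 at 8 h on the other probe set. Hmox1, Nqo1 and Osgin1 have 1 probe set each. Direction was thus kept at 8 h for the genes with several, except Gclm, and the size of the change depended on the probe set.

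None of the 3 genes whose group means most resembled each of the 9 was another of the 9. Over the 9 group means Srxn1 was closest to Ddx18 (Pearson's r = 0.993), Nsfl1c and Qser1 (both 0.992), and its closest member was Gclc (0.971), behind 79 other genes. Txnrd1 was closest to Slc2a1 (0.995), Plscr1 (0.989) and Slc30a5 (0.987), Gclc to Plaa (0.993), Uso1 and Prmt6 (both 0.992), and Sqstm1 to Tbpl1 (0.994), Rnmt (0.993) and Nepro (0.991). Hmox1 was closest to Hnrnpa1 (0.99), Tacc2 (0.967) and Ptpn2 (0.962), and Slc7a11 to Hgs (0.99), Bhlha15 (0.989) and Xpot (0.987). Nqo1 was closest to Exosc9 (0.991), Mettl9 (0.99) and Myh9 (0.989), Osgin1 to Rhoj (0.971), Fxyd5 and Sorl1 (both 0.966), and Gclm to Inpp1 (0.878), H6pd (0.875) and Gdap10 (0.862). For Gclm the closest member was Txnrd1 at 0.00756.

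The counts in the following lists stand beside these shares of all genes called higher and lower: 6.41% and 19.9% at 2 h, 17.7% and 24.2% at 8 h, 25% and 25.1% at 1 d, and 21.1% and 18.9% at 2 d. Of 13 regulators tested, 4 were higher and 1 lower at 2 h, 5 and 1 at 8 h, 5 and 2 at 1 d, and 2 and 2 at 2 d. Bach1, the repressor of antioxidant response elements, rose by 1.33 ± 0.22 at 2 h (adjusted p = 2.4e-05) and was at 0.08 at 8 h (adjusted p = 0.80). Maff, a small Maf partner, rose by 2.73 ± 0.30 at 2 h, 2.31 ± 0.30 at 8 h and 1.29 ± 0.30 at 1 d, and Mafk by 0.56 ± 0.13 at 2 h and 0.64 ± 0.13 at 8 h. Nfe2l2 itself was at 0.26 ± 0.14 at 2 h (adjusted p = 0.16) and -0.31 ± 0.14 at 8 h (adjusted p = 0.075), and rose at 2 d by 0.71 ± 0.14 (adjusted p = 8e-05). Keap1 was higher only at 1 d, by 0.27 ± 0.08 (adjusted p = 0.0067), and Cul3 rose by 0.46 ± 0.11 at 8 h. Activity of Nrf2 is set mainly through its protein, which arrays do not measure.

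Of 34 other Nrf2 targets listed, 27 were tested, with 1 higher and 6 lower at 2 h, 6 and 8 at 8 h, 12 and 6 at 1 d and 10 and 4 at 2 d. Pgd, an enzyme of the pentose phosphate pathway that supplies NADPH, rose by 1.22 ± 0.19 at 8 h, 1.87 ± 0.19 at 1 d and 1.31 ± 0.19 at 2 d. Abcc4 rose by 1.21 ± 0.35 at 8 h and 3.11 ± 0.35 at 1 d, and Ptgr1, which reduces reactive aldehydes, by 2.22 ± 0.22 at 2 d. All control and 2 h arrays of Abcc4 (4.71 to 5.43) lay below the overall median that the filter used. All its arrays at 8 h and 1 d lay above it, so the rises of Abcc4 are given as a description. Ces1g, a carboxylesterase, fell by 0.67, 2.12 and 3.08 at 2 h, 8 h and 1 d.

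Glutathione genes beyond the members (18 of 19 tested) were 1 higher and 6 lower at 2 h, 5 and 6 at 8 h, 6 and 4 at 1 d and 7 and 3 at 2 d. Slc3a2, the heavy chain partner of Slc7a11, rose by 1.72 ± 0.25 at 8 h, 2.63 ± 0.25 at 1 d and 0.98 ± 0.25 at 2 d. Its 2 d arrays read 7.44, 7.49, 7.84, 9.43 and 9.44, beside 7.02 to 7.54 in controls. Arrays 1 to 3 were thus at or slightly above the controls, and the high arrays 4 and 5 are those with the macrophage sums of 6910 and 6280 given above, whose part in the value was not tested. Chac1, which degrades glutathione and is itself an ATF4 target, rose by 3.48 ± 0.33 at 2 h, 1.53 ± 0.33 at 8 h and 1.88 ± 0.33 at 1 d. Cth, which makes cysteine from cystathionine, fell by 1.54 at 1 d, and Gpx1, a glutathione peroxidase, by 1.05 at 1 d. Thioredoxin and peroxiredoxin genes (16 of 19 tested) were 2 higher and 8 lower at 2 h, 2 and 9 at 8 h, 3 and 8 at 1 d and 4 and 3 at 2 d. Prdx2 fell by 0.43 at 2 h and 0.69 at 8 h. Txnip, an inhibitor of thioredoxin, rose by 2.02 ± 0.30 at 2 h and fell by 0.92 at 1 d. The 4 superoxide dismutase and catalase genes gave 0 calls at 2 h, 1 rise and 2 falls at 8 h, and 2 falls at each of 1 d and 2 d, when Cat, the catalase gene, fell by 0.81 and 0.74.

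Haem genes (11 of 12 tested) were 1 higher and 4 lower at 2 h, 2 and 3 at 8 h, 5 and 1 at 1 d and 6 and 0 at 2 d. Alas1, the entry step of haem synthesis, rose by 1.65 ± 0.46 at 2 h. Blvra, which turns the product of Hmox1 into bilirubin, fell by 0.64 at 2 h and 0.65 at 8 h and rose by 0.83 ± 0.08 at 2 d. Fth1, the ferritin heavy chain, rose by 0.82 ± 0.06 at 1 d and 0.49 ± 0.06 at 2 d. Flvcr1, a haem exporter, rose on its brighter probe set by 1.84 ± 0.19 at 8 h and 1.89 ± 0.19 at 1 d, but its other probe set gave -0.00073 and -0.19. The autophagy list (17 of 18 tested) was 2 higher and 5 lower at 2 h, 6 and 3 at 8 h, 6 and 4 at 1 d and 1 and 3 at 2 d. Lamp1, a lysosomal membrane protein, fell by 0.38 and 0.50 at 2 h and 8 h, and Map1lc3a, an autophagosome protein, rose by 1.05 ± 0.15 at 1 d. Map1lc3b, its relative, rose by 0.63 ± 0.12 at 8 h and was at -0.34 on its other probe set.

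Of 12 ATF4 targets of amino acid supply tested, 7 were higher and 1 lower at 2 h, 10 and 1 at 8 h, 11 and 1 at 1 d and 4 and 1 at 2 d, with medians of 0.392, 1.34, 1.18 and 0.240 beside -0.032, -0.0442, -0.0377 and -0.0284 over all genes. Atf4, which is itself counted in this list, rose by 0.93 ± 0.09 at 2 h. Ddit3, the stress factor CHOP, rose by 2.29 ± 0.22 at 2 h, 3.85 ± 0.22 at 8 h and 2.96 ± 0.22 at 1 d. Psat1, of serine synthesis, whose control mean of 3.90 was below the overall median, rose by 5.08 ± 0.28 at 8 h, 4.69 ± 0.28 at 1 d and 3.14 ± 0.28 at 2 d. All its control arrays lay below that median and all at these 3 times above it, so its rises are given as a description. The counts and medians of this list include Psat1. Slc7a11 is itself a known target of ATF4. Slc3a2, Chac1, Cth, Trib3 and Sesn2 stand in this list and in 1 of the lists above, so the counts overlap.

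**Figure D5:**
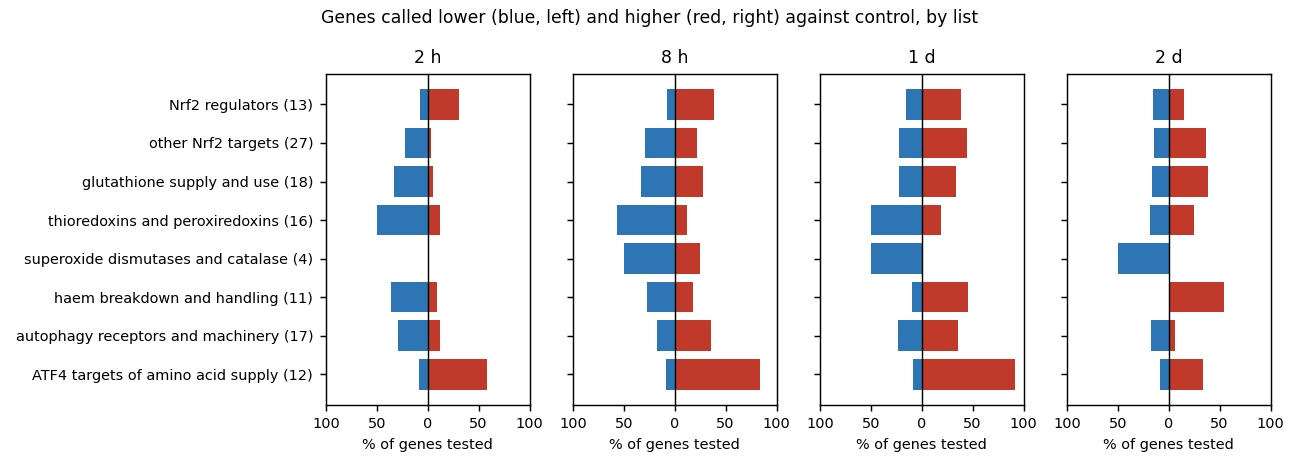
Share of the genes tested in each list that were called lower (blue, left) and higher (red, right) against control at 2 h, 8 h, 1 d and 2 d, with the number tested in parentheses. At 8 h 10 of 12 genes in the ATF4 list, which includes Psat1 and Atf4 itself, were higher. At that time 9 of 16 thioredoxin and peroxiredoxin genes were lower.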

How the data were processed

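Livers were profiled on Affymetrix mouse genome arrays. The authors deposited a table of log2 values, and the submitters' processing notes name RMA and oligo 1.52.0. RMA quantile-normalizes the arrays, so shifts common to most genes are removed. Of 45101 probe sets, 64 were controls, 34945 named 1 gene, 932 several and 9160 none. A gene with several probe sets was read from the brightest on average. Of 18193 genes, 13239 passed the filter and 4954 did not. Array medians were 5.48 to 5.63, and 0 per-sample columns were left unused. The number of arrays limits the precision, and the median standard error of a difference of 5 arrays against 5 was 0.0966.

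All 46 arrays in 9 groups entered 1 limma fit of the group means (limma 3.58.1, R 4.3.3, lmFit and eBayes, 37 residual degrees of freedom), with Benjamini-Hochberg adjustment within a contrast. On simulated data with 13239 genes the fit recovered 77.6%, 80.6% and 83.6% of 1.5-fold changes at 2 h, 8 h and 1 d against control, and 100% of 2-fold and 4-fold changes, with 5.13%, 0.532% and 5.5% of calls false. The simulation changed few genes, in a single group at a time, with the same spread of a gene in all groups. The real contrasts had many more calls and unequal spreads, so these shares check the fit and do not describe those contrasts. Within-array differences of paired genes were tested by exact permutation (scipy 1.17.1). Plots used matplotlib 3.10.9.

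The members, lists, motifs and tests were chosen with earlier results of these data known. Genes named are all members, the 4 largest called changes of each list at each of 2 h, 8 h, 1 d and 2 d (a selection of these is given), the 3 genes closest to each member, and Nfe2l2, Keap1 and Bach1. Genes named for how single arrays differ were chosen after their values were seen. Alternatives covered array scaling, filters, the choice of probe set, a fit of the compared groups alone, the variance model, weights, a replicate block, a Gapdh covariate, the p adjustment, a fold threshold and arrays left out.

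Replicate numbers were checked for pairing: arrays with the same number had a median residual correlation of 0.00932, those with different numbers -0.00402, and 12 of 46 arrays were closest to their own number. The numbers do not pair the arrays.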

Additional observations from a re-analysis of the deposited data

Results flagged for a closer look

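In each of 81 sets (9 genes in 9 groups) the highest and lowest array were compared with the rest by Dixon's gap, and 7 sets had an array far from the others; chance alone flags about 1 in 20. At 2 h array 3 was the highest in Srxn1 (10.7, next 8.18) and in Txnrd1 (9.32, next 8.61). At 1 d array 1 was the highest in Txnrd1 (10.7, next 9.51) and in Gclc (13.5, next 11.7). The lowest arrays far from their groups were array 2 at 2 d in Txnrd1 (8.96), array 2 at 4 d in Nqo1 (5.74) and array 5 at 8 d in Sqstm1 (9.69).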

How the results depend on the processing

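Of the genes called higher at 8 h, Srxn1, Txnrd1, Gclc, Hmox1 and Sqstm1 kept that call in each of the 24 alternatives run, and Slc7a11 did not pass the stricter filter. Over the 9 genes at 2 h, 8 h, 1 d and 2 d against control, 869 combinations of gene and setting were run, of which 38 lost a call, 8 gained one and 3 reversed. The cause of these changes was not tested. The following counts are of the 9 genes. After cyclic loess 0 were lower at 2 h, 2 were lower at 1 d against 2 h (Hmox1 and, at -0.25, Gclm), and 0 were higher at 1 d against 8 h. With the mean of all probe sets 2 were lower at 1 d against 2 h (Hmox1 and, at -0.27, Gclm), Sqstm1 was there at -0.094 without a call (adjusted p = 0.5711), and Hmox1 minus Srxn1 changed by 0.537 at 2 h (adjusted p = 0.02976) and 0.0424 at 2 d. With the other probe set, 1 was lower at 8 h (Gclm -0.30), 3 were higher and 1 lower at 2 d (Gclm -0.34), 3 were lower at 1 d against 2 h (Hmox1, Gclm at -0.55 and Sqstm1 at -0.94), 1 was lower at 4 d against 2 d, and Sqstm1 at 8 h against 2 h was -0.21. On their other probe sets Map1lc3b was at -0.14, -0.34, -0.11 and -0.49 and Flvcr1 at -0.00073, -0.19 and -0.18 at 8 h, 1 d and 2 d. With only the compared groups fitted, 2 were lower at 2 h, 1 higher at 4 d, 0 lower at 1 d against 2 h, 0 higher at 1 d against 8 h, and 2 lower at 2 d against 1 d. With array weights 0 were lower at 1 d against 2 h, 2 higher at 1 d against 8 h (Slc7a11 0.67) and 2 higher at 2 d against 1 d (Nqo1 0.69). The Gapdh covariate left 3 higher at 2 d. With Benjamini-Yekutieli adjustment 3 were higher at 2 d, 0 lower at 1 d against 2 h, 0 higher at 1 d against 8 h, and 1 lower at 4 d against 2 d. Requiring a 2-fold change left 0 lower at 2 h and 1 d, 1 higher at 2 d, 0 lower at 1 d against 2 h, 0 higher and 2 lower at 1 d against 8 h, 0 higher at 2 d against 1 d and 0 lower at 4 d against 2 d. Without arrays 1 and 2 at 1 d, Nqo1 was at -0.025 against control, Slc7a11 at 1 d was 0.89 above 8 h, Nqo1 at 2 d was 0.83 above 1 d, 0 were lower at 1 d against 2 h, and 2 each were higher at 1 d against 8 h and at 2 d against 1 d.

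Leaving out 1 array at a time gave 0 to 1 lower at 8 h against 2 h, 0 to 1 lower at 1 d against 2 h (0 without array 3 at 2 h), 0 to 1 higher at 1 d against 8 h (0 without array 3 at 8 h or array 1 or 4 at 1 d), 3 to 5 higher at 2 d (3 without array 4 or 5 at 2 d or control array 1, 2 or 3) and 1 to 3 lower at 4 d against 2 d (1 without array 3 at 2 d). Gclc minus Gclm at 2 d ranged from 0.269 to 0.483, with an adjusted p of 0.0680 without any of control arrays 2 to 5 or of arrays 2 to 4 at 2 d. Hmox1 minus Srxn1 ranged from -0.20 to 0.287 at 2 h and from -1.02 to -0.619 at 2 d, the former end without array 5. With the replicate number as a block, 3, 6, 6 and 5 genes were higher at 2 h, 8 h, 1 d and 2 d, as without it, and the pairing of the numbers was not borne out by the arrays; 5 instead of 6 were lower at 1 d against 8 h. Over all genes, the share of called genes that were higher moved by more than 10 percentage points at 2 h (24.3% as deposited, 37.8% after quantile normalization, 47.6% after cyclic loess), at 2 d (52.7%, and 41.7% after quantile normalization), at 8 h against 2 h (57.0%, and 67.5% with equal medians), at 1 d against 2 h (53.1%, and 66.5% with equal medians) and at 1 d against 8 h (65.6%, and 54.7% and 54.2% after quantile normalization and cyclic loess). The planned pair Srxn1 and Prdx1 was not run because Prdx1 had no value. Signal limits Slc7a11, which lay below the median of all values on 40 of 46 arrays.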
